A study of Rattus norvegicus with 10 samples.

Results

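The comparison was between fish oil and corn oil in kidneys of choline-deficient rats that the labels do not call necrotic. It took the log2 expression values of the 2 deficient fish oil arrays minus those of the 2 deficient corn oil arrays, which is 4 of the 10 arrays of the series. The rule takes arrays by their diet and label and uses no measured value, and all 29214 probe sets on the arrays were compared. Every animal was a male weanling Wistar rat killed after 6 days on its diet, and every array held the kidney RNA of 1 pool of 3 animals. Deficient fish oil rats received a diet without choline whose lipid was menhaden oil. Deficient corn oil rats received a diet without choline whose lipid was vegetable oil, named as corn oil on the samples and as corn plus hydrogenated oils in the protocol. The other groups, of 2 pools each, received choline with fish oil or with corn oil, and are called choline-fed here. The remaining 2 pools were deficient corn oil kidneys that carry the word necrotic. The protocol describes 4 diets and the design text 2 pools per condition, so the word splits 1 diet, and how kidneys were sorted by it is not stated. Averages over 3 animals hide the spread between single rats, and the p-values below measure the spread between pools.

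Choline is the head group of phosphatidylcholine, the main phospholipid of cell membranes, and is oxidised in kidney to betaine, a methyl donor and osmolyte. Young rats that lack it can develop acute tubular necrosis of the renal cortex, and the title of the series names protection by fish oil as its subject. Fish oil carries long-chain omega-3 fatty acids, which are incorporated into membranes, are ligands of PPAR alpha, the nuclear receptor that switches on fatty acid oxidation, and lower desaturase expression. Injured tubules switch on a known set of genes, among them kidney injury molecule 1 (Havcr1), lipocalin 2 (Lcn2) and fibrinogen, and recruit macrophages. NRF2 is the transcription factor that switches on detoxifying enzymes after electrophilic or oxidative stress.

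A probe set was called when its adjusted p was under 0.05 (limma, Benjamini-Hochberg adjustment over all probe sets), and rose or fell refers to fish oil relative to corn oil among called genes. A value after ± is the moderated standard error of a difference between means of 2 pools a side. Its variance was not taken from those pools alone. It was estimated over the arrays of all groups, choline-fed and necrotic ones included, and moderated across probe sets. A difference of 1 log2 unit is a 2-fold change in intensity. Array medians ran from 7.28 to 7.43. The tubule markers Umod, Slc34a1, Slc12a1, Lrp2 and Aqp2 lay between 12.26 and 13.88 on all 4 arrays, near the top of the range of 1.62 to 14.72. No detection call was used, so whether a low value, such as 5.72 for Ugt2b7 or 5.84 for Fgg below, lay above background was not tested, and folds against such values are ratios of the deposited intensities. The 2 pools of a group were not equally alike. Of the 29214 probe sets, 271 differed 2-fold or more between the deficient fish oil pools and 488 between the deficient corn oil pools. In the injury and macrophage genes below, deficient corn oil pool 2 was often the higher of its pair and deficient fish oil pool 1 at times the higher of its own.

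Deficient kidneys under fish oil had mostly lower expression than under corn oil where a gene was called. Of 29214 probe sets 507 were called (1.74%), 406 lower (1.39%) and 101 higher (0.346%). Among those called, 251 were at least 2-fold lower and 45 at least 2-fold higher. With 1 probe set for each of 14506 named genes, 404 were called (2.79%), of which 329 fell (2.27% of all genes) and 75 rose (0.517%), and these gene shares are the background for the lists below. The median of the 406 lower probe sets was 7.98 and 7.94 in the fish oil pools and 9.27 and 9.38 in the corn oil pools. The median of the 101 higher probe sets was 10.25 and 10.32 under fish oil and 9.38 and 9.16 under corn oil. All 507 kept their direction when any 1 of the 4 arrays was left out. They were chosen by their difference on these same arrays, so this is largely set by that choice. Most of them lost their call in at least 1 such fit. The count was 691 without corn oil pool 1, 239 without corn oil pool 2, 137 without fish oil pool 1 and 87 without fish oil pool 2. List counts that moved by more than 1.5 times are followed by their left-out counts, which in a run of 4 stand in that order. Over the named genes, 31 of 101 called ones remained called in all 4 fits. These are pointed out as holding throughout, and every other named call was lost in at least 1 of the 4. Holding throughout refers to these 4 fits alone, whose variance still drew on the arrays of the other groups. In a fit of the 4 arrays alone, 87 of the 101 named calls were lost.

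**Figure D1:**
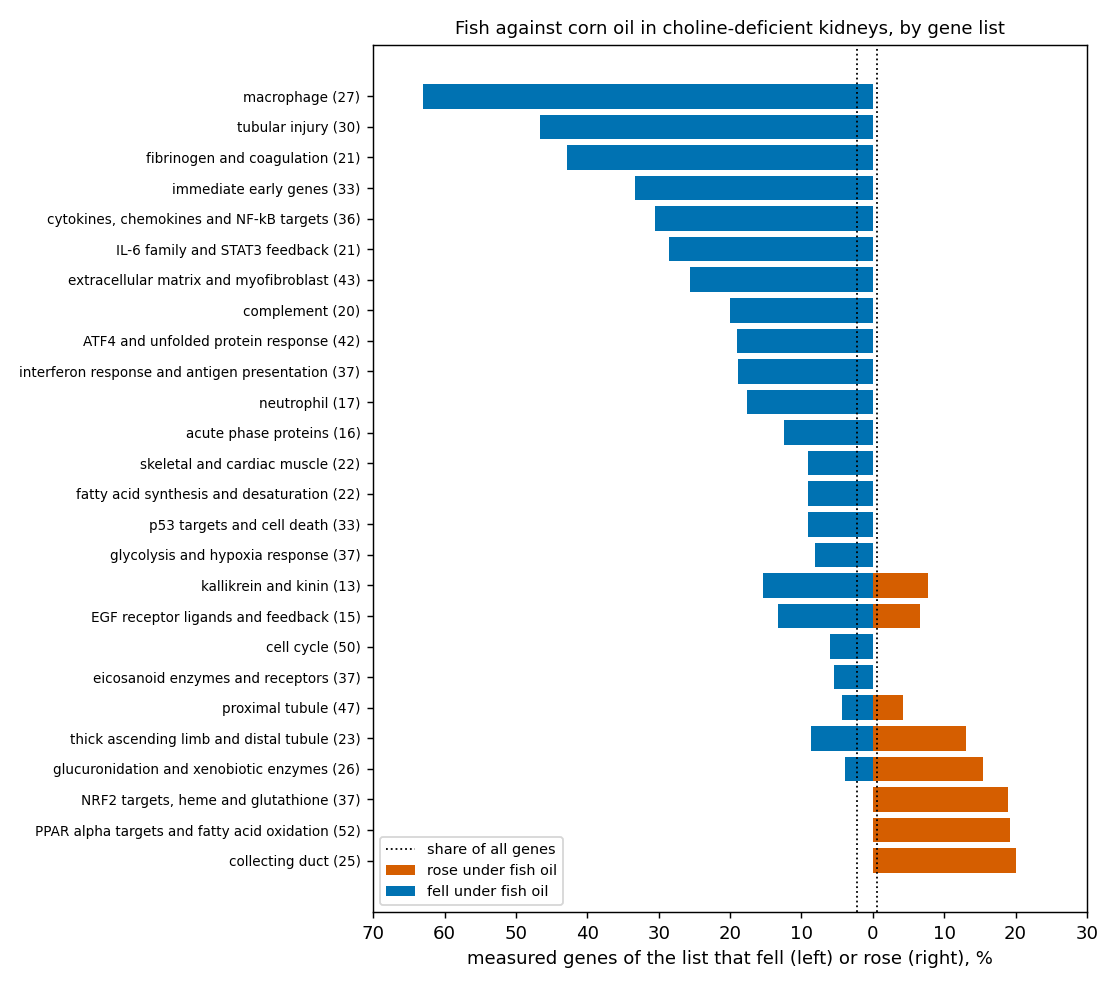
Share of the measured genes of each list shown (number in brackets) that fell (left, blue) or rose (right, orange) under fish oil in choline-deficient kidneys, in percent. Dotted lines mark the shares of all 14506 genes (2.27% and 0.517%). Lists with a single called gene or none are left out. The macrophage (17 of 27) and tubular injury (14 of 30) bars reach furthest left, and the collecting duct, PPAR alpha and NRF2 bars furthest right.

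Promoters of 6 changed genes are shown first: the fibrinogen genes, which fell together, Olr1, and Pir and Gsta3, which rose together. Each is the 250 bases before the annotated start, 5′ to 3′ on the gene's strand, from RefSeq on build GRCr8. Capitals mark matches on either strand to a STAT element (TTCNNNGAA) in Fga and Fgb, to an AP-1 element (TGANTCA) in Fgb and Olr1, and to the core of the antioxidant response element bound by NRF2 (TGACNNNGC) in Pir and Gsta3. Fga lies at chr2:170671919-170672168 (plus strand), Fgb at chr2:170700876-170701125 (minus), Fgg at chr2:170652833-170653082 (plus), Olr1 at chr4:164634548-164634797 (minus), Pir at chrX:33851050-33851299 (minus) and Gsta3 at chr9:31154739-31154988 (plus).
Fga: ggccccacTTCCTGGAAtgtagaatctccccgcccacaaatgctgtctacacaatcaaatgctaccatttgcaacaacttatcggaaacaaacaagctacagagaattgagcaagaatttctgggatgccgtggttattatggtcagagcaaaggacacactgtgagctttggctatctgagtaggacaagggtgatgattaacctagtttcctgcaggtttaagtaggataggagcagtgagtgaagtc
Fgb: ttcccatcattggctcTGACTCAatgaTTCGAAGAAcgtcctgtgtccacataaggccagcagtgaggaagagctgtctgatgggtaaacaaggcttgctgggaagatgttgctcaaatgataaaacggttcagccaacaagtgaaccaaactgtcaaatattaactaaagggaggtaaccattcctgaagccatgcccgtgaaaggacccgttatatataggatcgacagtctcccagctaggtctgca
Fgg: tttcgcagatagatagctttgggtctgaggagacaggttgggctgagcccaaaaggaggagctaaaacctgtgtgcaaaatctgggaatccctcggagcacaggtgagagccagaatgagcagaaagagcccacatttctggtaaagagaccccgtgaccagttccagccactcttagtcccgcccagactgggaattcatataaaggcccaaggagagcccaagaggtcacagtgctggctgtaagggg
Olr1: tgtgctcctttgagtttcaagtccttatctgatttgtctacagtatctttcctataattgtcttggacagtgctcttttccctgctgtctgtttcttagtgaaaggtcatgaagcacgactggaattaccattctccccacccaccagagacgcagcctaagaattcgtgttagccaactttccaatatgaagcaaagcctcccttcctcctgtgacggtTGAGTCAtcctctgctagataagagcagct
Pir: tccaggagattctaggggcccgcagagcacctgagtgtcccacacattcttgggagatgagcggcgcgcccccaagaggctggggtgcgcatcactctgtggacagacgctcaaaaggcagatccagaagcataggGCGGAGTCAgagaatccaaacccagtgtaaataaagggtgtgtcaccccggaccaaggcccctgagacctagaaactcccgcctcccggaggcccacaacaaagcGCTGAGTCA
Gsta3: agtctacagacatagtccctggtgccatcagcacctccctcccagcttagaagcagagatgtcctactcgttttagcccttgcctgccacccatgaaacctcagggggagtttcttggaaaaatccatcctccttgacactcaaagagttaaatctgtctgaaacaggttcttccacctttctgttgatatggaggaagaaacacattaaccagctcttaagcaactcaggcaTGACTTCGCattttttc
The STAT match began 242 bases before the start in Fga and 223 bases before it in Fgb, and the AP-1 match began 234 bases before it in Fgb and 30 bases before it in Olr1. The antioxidant core matches began 114 and 9 bases before the start in Pir, where the second overlaps an AP-1 match, and 17 bases before it in Gsta3, whose window also holds a STAT match not put in capitals. The Fgg window held none of the searched letters. A promoter was found for 265 of the 329 fallen and 58 of the 75 risen genes. The AP-1 letters were in 33 fallen genes (12.5%) and 4 risen genes (6.9%), against 6.36% of all 27457 promoters. The STAT letters were in 23 fallen (8.68%) and 4 risen genes (6.9%), against 7.52%. The antioxidant core was in 31 fallen (11.7%) and 7 risen genes (12.1%), against 10.2%. A PPAR direct repeat (AGGTCA as a pair of copies 1 base apart) was in none of the fallen or risen genes and in 15 of all promoters. These are letter matches and were not tested as binding sites.

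Fibrinogen genes had some of the largest falls. The 3 chains of this clotting protein (Fga, Fgb and Fgg) all fell by more than 3 log2 units. Fgg, the gamma chain, measured 6.36 and 5.84 in the deficient fish oil pools and 10.64 and 11.48 in the deficient corn oil pools. Both fish oil pools lay more than 4 log2 units under both corn oil pools. Fgg was 31.1-fold lower under fish oil (log2 difference -4.96 ± 0.36, adjusted p = 0.000745 by limma). Fgb, the beta chain, measured 7.93 and 6.86 under fish oil and 10.88 and 11.45 under corn oil, a 13.7-fold fall (-3.77 ± 0.34). Fga, the alpha chain, measured 9.69 and 9.29 against 12.63 and 12.57, an 8.64-fold fall (-3.11 ± 0.17). Of 21 coagulation genes measured, 9 fell and none rose, with a list median of -0.57 against 0 over all genes. Plaur, the urokinase receptor, fell too (-1.58 ± 0.17). Each of these 4 genes held throughout.

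Kininogens fell in the same samples. They are the precursors of bradykinin, a peptide that dilates vessels. Kng2 measured 7.67 and 7.26 under fish oil and 11.35 and 10.90 under corn oil, and the groups were far apart. The fall was 12.6-fold (-3.66 ± 0.23, limma adjusted p = 0.000584). Kng1 measured 6.64 and 6.13 against 9.62 and 9.93 (-3.39 ± 0.24), and its dimmer probe set differed by -1.91 (adjusted p = 0.0222). Klk1, the kallikrein that cuts kininogen in the distal nephron, went the other way. It measured 12.58 and 12.48 under fish oil and 11.67 and 11.37 under corn oil, a 2.01-fold rise (1.01 ± 0.19, adjusted p = 0.0372). In all, 2 of 13 kallikrein and kinin genes fell and 1 rose. Both kininogens held throughout, while Klk1 was called in 1 of the 4 fits that left out an array.

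Tubular injury genes were lower under fish oil, 14 of 30 measured falling and none rising, with a median of -0.80. Both fish oil pools lay below both corn oil pools for 23 of the 30, and for 3374 of all 14506 genes. Havcr1, which is shed by injured proximal tubules, measured 9.30 and 7.22 under fish oil and 11.82 and 13.11 under corn oil. The fish oil pools differed by over 2 log2 units between themselves, and both lay above all 4 choline-fed pools (6.37 to 6.67). Havcr1 was 18.4-fold lower under fish oil (-4.20 ± 0.60, limma adjusted p = 0.0138). Lcn2, an iron-carrier binding protein released by stressed distal tubules, measured 10.26 and 9.34 against 11.66 and 12.39 (-2.23 ± 0.31). Timp1, an inhibitor of matrix metalloproteases, measured 10.11 and 9.67 against 11.72 and 12.78 (-2.36 ± 0.29). Tgm1, a cross-linking transglutaminase, fell by 2.52. Clu, a secreted chaperone, measured 10.77 and 10.41 against 11.75 and 12.82 (-1.70 ± 0.30), and Spp1, osteopontin, 12.98 and 12.35 against 13.89 and 14.11 (-1.33 ± 0.20). The count for this list was 15 without corn oil pool 1, 6 without corn oil pool 2, 8 without fish oil pool 1 and 2 without fish oil pool 2. Of these, Havcr1 was not called without corn oil pool 2, nor Lcn2 and Spp1 without that pool or fish oil pool 2. Timp1 was lost without fish oil pool 2, and Tgm1 and Clu without either fish oil pool.

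**Figure D2:**
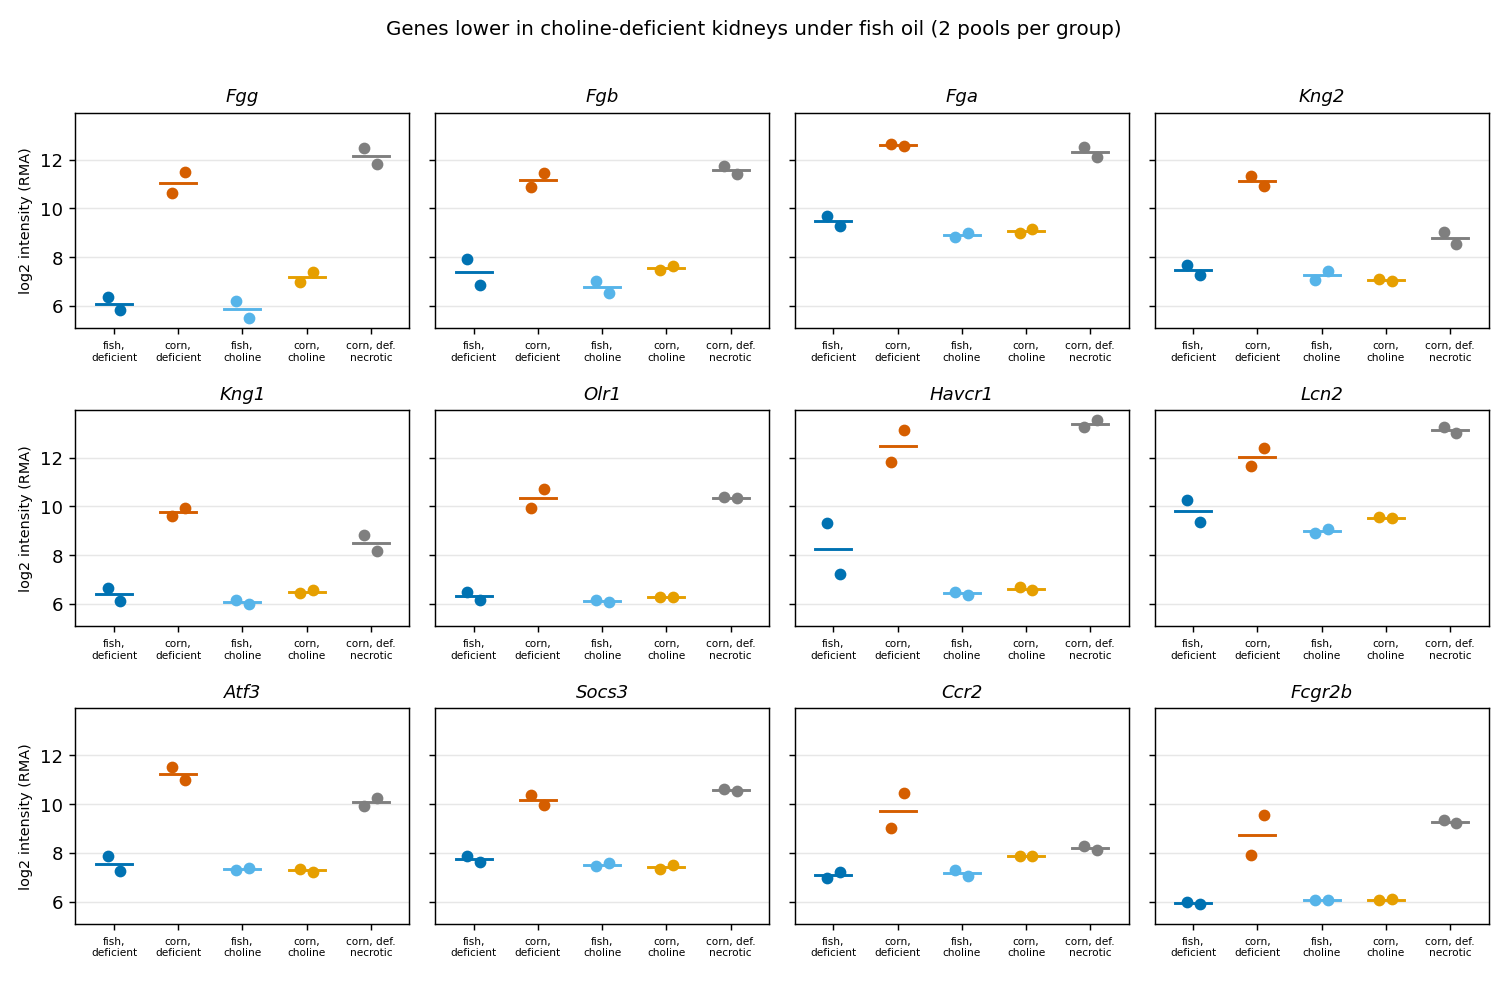
Log2 intensity of 12 genes that fell under fish oil in choline-deficient kidneys, on each of the 10 arrays; points are pools, bars the mean of 2 pools. The deficient corn oil pools sit above both deficient fish oil pools in every panel, and for Fgg, Olr1 and Atf3 the deficient fish oil pools sit near the choline-fed ones.

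Genes switched on within minutes to hours of a stimulus were also lower. Of 33 immediate early genes 11 fell and none rose (median -0.72). Atf3, a stress-induced transcription factor, measured 7.89 and 7.24 under fish oil and 11.52 and 10.97 under corn oil. Both corn oil pools lay more than 3 log2 units above both fish oil pools, a 12.8-fold difference (-3.68 ± 0.24, limma adjusted p = 0.000645). Klf6, a zinc finger factor induced by injury, measured 8.40 and 8.39 against 9.96 and 10.19 (-1.67 ± 0.12). Junb, a subunit of AP-1, measured 9.85 and 9.31 against 11.33 and 11.08 (-1.62 ± 0.22). Myc, a growth factor-induced regulator, measured 8.94 and 8.70 against 10.04 and 10.44 (-1.42 ± 0.17). Atf3 and Klf6 held throughout, and Junb and Myc were lost without fish oil pool 2. The list count was 6 without fish oil pool 1 and 2 without fish oil pool 2.

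The interleukin 6 family and its feedback genes gave 6 falls among 21 measured and no rise (median -0.64). Il6 itself, a dim probe set, measured 4.90 and 4.61 under fish oil and 6.82 and 5.85 under corn oil (-1.58 ± 0.29, limma adjusted p = 0.0369), and was called in 1 of the 4 fits that left out an array. Lif, a ligand of the same receptor family, measured 6.98 and 6.67 against 9.27 and 8.68 (-2.15 ± 0.23). Osmr, the oncostatin M receptor, measured 9.15 and 8.87 against 11.18 and 11.13 (-2.15 ± 0.16). The corn oil pools were almost equal for this gene and far above the fish oil pools. Socs3, which STAT3 induces and which shuts the receptor off, measured 7.89 and 7.63 against 10.39 and 9.95, a 5.33-fold fall (-2.41 ± 0.17). Lif, Osmr and Socs3 held throughout. The list count was 3 without fish oil pool 1 and 3 without fish oil pool 2.

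Of 36 cytokines, chemokines and NF-kB targets 11 fell and none rose (median -0.73). Il1rn, the antagonist of the interleukin 1 receptor, measured 6.23 and 5.84 under fish oil and 7.74 and 8.29 under corn oil (-1.98 ± 0.20). Cxcl10, which draws T cells, measured 9.34 and 9.12 against 11.20 and 10.94 (-1.84 ± 0.16). Csf1, the growth factor of macrophages, measured 8.20 and 8.38 against 9.98 and 9.90 (-1.65 ± 0.14). All 3 held throughout. Both fish oil pools lay below both corn oil pools for 27 of the 36, and for 3374 of all 14506 genes. Cxcl11, another T cell chemokine, differed by -1.81 (limma adjusted p = 0.014) and was called in 1 of the 4 fits that left out an array. The list count was 7 without fish oil pool 2. Among interferon and antigen presentation genes 7 of 37 fell, led by Cxcl10 and the transcription factor Irf1 (-1.78 ± 0.26), with class II genes RT1-Db1 (-1.26 ± 0.23) and RT1-Da (-1.12 ± 0.20). The count there was 4, 2, 1 and 1 without corn oil pools 1 and 2 and fish oil pools 1 and 2.

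Of 27 macrophage genes measured 17 fell and none rose (median -1.11), the largest share among the 42 lists. In whole kidney RNA, fewer cells of a type and less RNA per cell cannot be told apart. Olr1, a scavenger receptor for oxidised lipoprotein that endothelium also makes, measured 6.50 and 6.17 under fish oil and 9.94 and 10.71 under corn oil, a 15.9-fold fall (-3.99 ± 0.23, limma adjusted p = 0.000389). It held throughout. Fcgr2b, the inhibitory IgG receptor, measured 5.99 and 5.89 against 7.93 and 9.54 (-2.79 ± 0.40). Ccr2, the receptor that draws monocytes, measured 6.98 and 7.23 against 9.01 and 10.46 (-2.63 ± 0.38). Mmp12, the macrophage elastase, measured 6.01 and 6.23 against 8.19 and 9.03 (-2.49 ± 0.40). Corn oil pool 2 was the higher of its pair in each. Both fish oil pools lay below both corn oil pools for 22 of the 27 macrophage genes, and for 3374 of all 14506 genes. Without either fish oil pool, Fcgr2b, Ccr2 and Mmp12 were not called. Summed over the list, linear intensity was 10621 to 11801 in the fish oil pools and 20167 to 30129 in the corn oil pools, against 10399 to 12627 in the choline-fed pools. The macrophage count was 18 without corn oil pool 1, 5 without corn oil pool 2, 2 without fish oil pool 1 and 2 without fish oil pool 2. The part of macrophage RNA in the falls of injury, cytokine and complement genes was not tested. For complement, 4 of 20 fell: C1qa, C1qb and C1qc, which macrophages make (-1.07 to -1.40), and Cfi, the C3b protease (-1.11 ± 0.14). The left-out counts were 7, 2, 0 and 0. Of 16 acute phase genes 2 fell, Il1rn and Cd14, the lipopolysaccharide co-receptor of macrophages (-1.77 ± 0.15), which held throughout; 7 fell without corn oil pool 1.

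Other blood cell lists were counted beside them. Of 17 neutrophil genes 3 fell, namely Lcp1, an actin bundler of all leukocytes (-1.82 ± 0.13), S100a9 (-1.22 ± 0.23) and Csf3r (-0.80 ± 0.11), with left-out counts of 2, 1, 1 and 1. Their summed intensity was 1617 to 1645 under fish oil and 3054 to 3353 under corn oil. No lymphocyte gene of 19 was called (median -0.21), with summed intensities of 2473 to 2780 and 3122 to 3486. Among the largest falls outside the lists, Glycam1, a mucin-like adhesion molecule, measured 6.73 in both fish oil pools and 8.91 and 9.90 under corn oil (-2.68 ± 0.29). Fcnb, a lectin that starts the complement cascade, measured 8.10 and 7.71 against 10.20 and 10.87 (-2.63 ± 0.22). Lcp1, Glycam1 and Fcnb held throughout.

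Matrix and myofibroblast genes gave 11 falls of 43 and no rise (median -0.48). Tagln, an actin-binding protein of contractile cells, measured 10.06 and 9.79 under fish oil and 12.14 and 12.35 under corn oil, a 4.99-fold fall (-2.32 ± 0.16, limma adjusted p = 0.000645). Inhba, the activin A subunit, measured 6.35 and 6.28 against 8.24 and 8.61 (-2.11 ± 0.19). Ccn1, a matricellular protein, measured 10.43 and 10.36 against 12.32 and 11.90 (-1.71 ± 0.18). Tagln, Inhba and Ccn1 held throughout. The list count was 6 without corn oil pool 2, 6 without fish oil pool 1 and 5 without fish oil pool 2. In the endothelial list Apln, a vasodilator peptide, was the 1 fall of 24 (-2.08 ± 0.21) and held throughout, and in the podocyte list the channel Trpc6 was the 1 fall of 14 (-1.01 ± 0.12), lost without either fish oil pool.

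**Figure D3:**
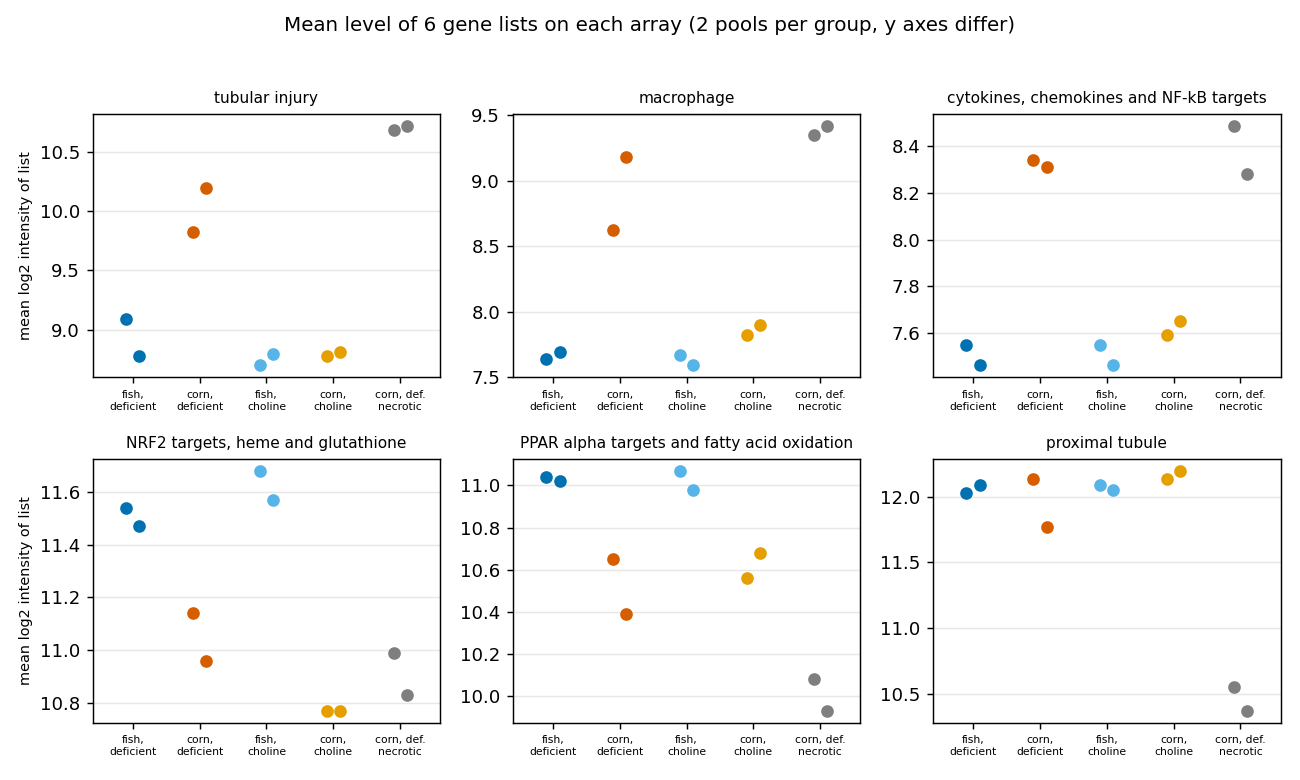
Mean log2 intensity of 6 gene lists on each of the 10 arrays, with 2 pools per group in replicate order and a separate y axis for each panel. The macrophage mean was 8.62 and 9.18 in the deficient corn oil pools and 7.64 and 7.69 in the deficient fish oil pools, and the NRF2 list mean was highest in the 4 fish oil pools.

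Amino acid stress genes were lower. Of 42 targets of ATF4 and the unfolded protein response 8 fell and none rose (median -0.22). Slc7a5, a transporter of large neutral amino acids, measured 7.82 and 7.45 under fish oil and 9.21 and 9.63 under corn oil (-1.78 ± 0.17, limma adjusted p = 0.00249) and held throughout. Asns, asparagine synthetase, measured 8.81 and 8.86 against 10.08 and 10.37 (-1.39 ± 0.18), Aldh18a1, for proline synthesis, differed by -1.40 and Mthfd2, a mitochondrial folate enzyme, by -1.23. For this list the count was 5, 4, 5 and 1 without corn oil pools 1 and 2 and fish oil pools 1 and 2. Of 33 p53 and cell death genes 3 fell: Bcl2a1, which blocks apoptosis (-1.88 ± 0.16), Ripk3, the kinase of necroptosis (-1.80 ± 0.24), and Casp4, an inflammatory caspase (-1.48 ± 0.21). Of 50 cell cycle genes 3 fell, Rrm2, a subunit of ribonucleotide reductase (-1.57 ± 0.31), Mcm5 of the replication helicase (-1.27 ± 0.23) and Ccnd2, a cyclin (-0.76 ± 0.12), with a list median of -0.59. Igfbp1, a secreted IGF-binding protein and the 1 fall of 13 IGF genes, measured 11.78 and 11.29 against 13.29 and 12.88 (-1.56 ± 0.20). Bcl2a1 held throughout, Ripk3 and Casp4 were lost without either fish oil pool, Igfbp1 was lost without fish oil pool 2, and the left-out counts of the cell cycle list were 1, 1, 0 and 0.

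The rises were led by enzymes that conjugate and export foreign compounds. Ugt2b7, a glucuronosyltransferase, measured 10.63 and 10.74 under fish oil and 5.77 and 5.72 under corn oil, with the pools of each group almost equal. The rise was 30.7-fold (4.94 ± 0.15, limma adjusted p = 5.48e-06), the smallest adjusted p of the comparison. Ugt2b35, a close relative, measured 11.32 and 11.58 against 9.06 and 7.20 (3.32 ± 0.60, adjusted p = 0.033). Hybridisation between the members of this family was not tested. Of 26 glucuronidation and xenobiotic genes 4 rose and Cyp1b1 fell (-1.25 ± 0.23), the other named rise being Cyp1a1 (1.24 ± 0.24). Ugt2b7 held throughout, and the left-out counts of rises were 5, 1, 1 and 1, while Cyp1b1 and Cyp1a1 were called in none of those fits.

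NRF2 target, heme and glutathione genes gave 7 rises of 37 and no fall (median 0.42). Nqo1, a quinone reductase, measured 10.57 and 10.90 under fish oil and 9.21 and 8.65 under corn oil (1.81 ± 0.29, limma adjusted p = 0.0221). Gsta3, a glutathione transferase, measured 10.25 and 10.56 against 8.94 and 8.20 (1.83 ± 0.28). Abcc2, which pumps glutathione and glucuronide conjugates into urine, measured 11.79 and 12.05 against 10.28 and 10.45 (1.56 ± 0.14). Abcc4, a second exporter, rose by 1.20 ± 0.14, and its other probe sets by 1.32 and 1.52. Pir, an iron-binding nuclear protein, measured 9.81 and 10.20 against 8.34 and 7.66, a 4.01-fold rise (2.00 ± 0.22). Pir and Abcc2 held throughout, but not every gene named in this paragraph is a member of the list. The list count of rises was 3 without corn oil pool 2, 3 without fish oil pool 1, where 1 gene fell, and 1 without fish oil pool 2. Hmox1, heme oxygenase 1, measured 9.63 and 8.34 under fish oil and 9.23 and 9.95 under corn oil, so the groups overlapped and no difference was detected (-0.60 ± 0.47, adjusted p = 0.72).

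**Figure D4:**
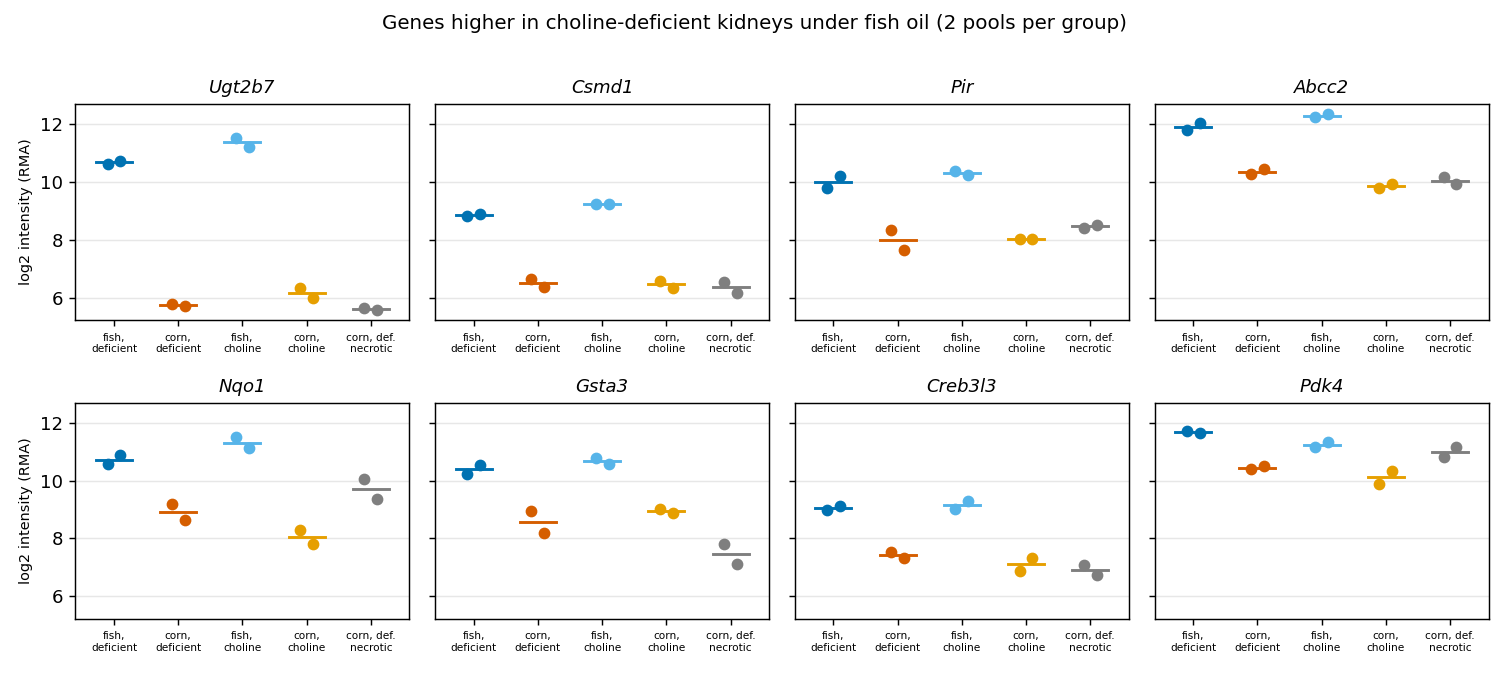
Log2 intensity of 8 genes that rose under fish oil in choline-deficient kidneys, on each of the 10 arrays; points are pools, bars the mean of 2 pools. In every panel the 2 deficient fish oil pools sit above all 6 corn oil pools, and for Ugt2b7 the 4 fish oil pools lie between 10.63 and 11.52 against 6.32 or less in the deficient (without the word necrotic) and choline-fed corn oil pools.

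Fatty acid oxidation genes were also among the rises. Of 52 PPAR alpha targets 10 rose and none fell (median 0.50). Creb3l3, a transcription factor of lipid metabolism that PPAR alpha induces, measured 8.99 and 9.13 under fish oil and 7.53 and 7.32 under corn oil (1.63 ± 0.19, limma adjusted p = 0.00626). Pdk4, which blocks glucose oxidation, measured 11.72 and 11.64 against 10.40 and 10.50 (1.22 ± 0.18). Acaa1b, a peroxisomal thiolase, measured 12.19 and 12.08 against 11.06 and 10.72 (1.25 ± 0.20), and Ehhadh, the next peroxisomal enzyme upstream, 13.49 and 13.38 against 12.54 and 12.08 (1.13 ± 0.19). Both fish oil pools lay above both corn oil pools for 39 of the 52, and for 3330 of all 14506 genes. Cpt1a, which admits fatty acids to mitochondria, differed by 0.40 ± 0.14 (adjusted p = 0.267) and Cyp4a1, an omega-hydroxylase, by 0.86 ± 0.29 (adjusted p = 0.243). The count of rises was 19 without corn oil pool 1, 2 without corn oil pool 2, 1 without fish oil pool 1 and 0 without fish oil pool 2. No mitochondrial respiration gene of 53 was called (median 0.14), and 1 rose without corn oil pool 1.

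In lipid synthesis, Scd, the stearoyl-CoA desaturase, measured 8.95 and 8.27 under fish oil and 10.85 and 10.29 under corn oil, a 3.90-fold fall (-1.96 ± 0.26, limma adjusted p = 0.0115), lost without fish oil pool 2. Fasn, fatty acid synthase, measured 10.07 and 9.18 against 10.54 and 10.43, and was not called (-0.85 ± 0.26, adjusted p = 0.198). Insig1, which restrains SREBP processing, differed by -1.21 ± 0.21 (adjusted p = 0.0322), and its other probe set by -0.92 (adjusted p = 0.0863). Scd and Insig1 were the 2 falls of 22 fatty acid synthesis genes, with left-out counts of 1, 2, 2 and 0 and 2 rises without corn oil pool 1. Insig1 was also the 1 fall of 22 cholesterol genes and was called in none of the 4 fits, while 1 cholesterol gene rose without corn oil pool 1. Of the lipid droplet list, Lipg, endothelial lipase, was the 1 rise of 26 (1.25 ± 0.20), with left-out counts of 3, 0, 0 and 0, and Plin2, a droplet coat protein, differed by -0.67 ± 0.28 (adjusted p = 0.372). Few enzymes of choline use were called. The choline oxidation and methionine cycle list had a median of 0.27, against 0.0 over all genes. None of 21 phosphatidylcholine synthesis genes was called (median 0.10). Pcyt1a, the rate-limiting enzyme of the choline pathway, differed by 0.19 ± 0.15 and Chdh, choline dehydrogenase, by 0.00 ± 0.20, with levels of 11.05 to 11.22 on all 4 arrays. Mthfd2 was the 1 fall of 23 choline oxidation and methionine cycle genes, lost without either fish oil pool, and 2 of them rose without corn oil pool 1. Of 37 eicosanoid genes 2 fell, Pla2g2a, a secreted phospholipase (-1.81 ± 0.18), and Tbxas1, thromboxane synthase (-1.14 ± 0.22). Pla2g2a held throughout, the left-out counts of falls were 3, 1, 1 and 1, and 3 eicosanoid genes rose without corn oil pool 1. Ptgs2, cyclooxygenase 2, measured 9.79 and 9.88 under fish oil and 9.28 and 8.67 under corn oil (0.87 ± 0.19, adjusted p = 0.0617).

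Nephron segment lists held a few calls in both directions. In the proximal tubule list 4.3% rose and 4.3% fell, against 0.517% and 2.27% of all genes. Of 25 collecting duct genes 5 rose and none fell, including the anion exchangers Slc26a7 (1.24 ± 0.19) and Slc4a1 (1.00 ± 0.18), the proton pump subunit Atp6v1b1 (0.74 ± 0.14) and the ammonia transporter Rhbg (0.67 ± 0.12), all of intercalated cells. The collecting duct count was 2 without corn oil pool 1, where 1 gene fell, and 0 without any 1 of the other 3 arrays. Slc4a1, also an erythroid gene, was the 1 rise of 9 in that list and was called in none of the 4 fits. In the thick ascending limb and distal list of 23, Casr, the calcium-sensing receptor, measured 10.79 and 11.01 against 9.38 and 9.91 (1.25 ± 0.18). Oxgr1, the receptor for 2-oxoglutarate, measured 11.22 and 11.64 against 9.74 and 10.38 (1.37 ± 0.22). Klk1 was the third rise, and Kng1 and the calcium channel Trpv5 (-1.02 ± 0.19) were the falls. The left-out counts were 3, 2, 0 and 0 rises and 1 fall in each fit. Of 47 proximal tubule genes 2 rose, the urate and phosphate transporters Slc17a3 (1.01 ± 0.13) and Slc17a1 (0.71 ± 0.13), and 2 fell, the sulfate transporter Slc13a1 (-0.82 ± 0.12) and the amino acid transporter Slc7a7 (-0.62 ± 0.11). The left-out counts were 1, 0, 1 and 0 rises and 1, 2, 0 and 1 falls. Umod, uromodulin, differed by -0.02 ± 0.13, Slc34a1, the proximal phosphate transporter, by 0.10 ± 0.11 and Egf by 0.24 ± 0.17, none called. The summed proximal tubule intensity was 276176 to 292176 under fish oil and 227861 to 276223 under corn oil.

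Several named genes did not belong to these themes. Tsku, a secreted leucine-rich protein, measured 11.77 and 11.72 under fish oil and 10.07 and 10.34 under corn oil, a 2.91-fold rise (1.54 ± 0.14, limma adjusted p = 0.00203) that held throughout. Cldn17, a tight junction protein of the proximal nephron, measured 8.40 and 8.93 against 7.13 and 7.54 (1.33 ± 0.20), and Klk1c9, a kallikrein relative, 8.94 and 9.03 against 8.07 and 7.31 (1.30 ± 0.21). Of 15 genes of EGF receptor signalling, the ligand Hbegf (-1.56 ± 0.22) and Egfr itself (-0.93 ± 0.17) fell, while the ligand Btc rose (0.67 ± 0.13). Of 37 glycolysis and hypoxia genes 3 fell, the lactate exporter Slc16a3 (-1.39 ± 0.26), hexokinase Hk2 (-1.12 ± 0.20) and the vasodilator peptide Adm (-0.75 ± 0.13). Lists of other tissues held few calls: Cyp11a1, which starts steroid synthesis, was the 1 fall of 12 adrenal genes (-1.11 ± 0.13), and Des and Ankrd1 were the 2 falls of 22 muscle genes (-0.96 ± 0.15 and -0.70 ± 0.14). No member was called of the heat shock (19 genes), adipocyte (15), renin-angiotensin (14), arginine and nitric oxide (23) or osmolyte (10) lists, apart from 1 osmolyte gene that rose without corn oil pool 1. Cldn17 was lost without corn oil pool 1 or fish oil pool 2, Klk1c9 without either fish oil pool and Cyp11a1 without fish oil pool 1. The left-out counts were 2, 1, 1 and 0 falls and 1, 0, 0 and 0 rises for EGF receptor genes, 2, 1, 1 and 0 falls for glycolysis and 3, 1, 0 and 0 falls for muscle.

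The same oil comparison was available in choline-fed kidneys, from 4 other arrays. There 54 probe sets were called (0.185%), 25 higher (0.0856%) and 29 lower (0.0993%), and the count was 3 to 6 when any 1 of those arrays was left out. Some of the largest rises were called there too. Ugt2b7 rose by 5.22 ± 0.15 (limma adjusted p = 3.42e-06), Csmd1, a large complement-regulator-like membrane protein, by 2.78 ± 0.16 against 2.37 ± 0.16 in deficient kidneys, and Nqo1 by 3.26 ± 0.29. Csmd1 held throughout in deficient kidneys. Of the 101 probe sets higher in deficient kidneys, 76 lay above 0 in choline-fed kidneys (75.2%, against 54.6% of all probe sets), with a median of 0.50 there and 0.89 in deficient kidneys, and 15 were called in both. Of the 406 lower probe sets, 317 lay below 0 (78.1%, against 45.4%), with a median of -0.25 there and -1.12 in deficient kidneys, and 9 were called in both. Scd and Rrm2 were among those 9, at -2.85 ± 0.26 and -2.37 ± 0.31. Igfbp1 was called in the opposite direction with choline (1.41 ± 0.20, adjusted p = 0.0442). By list, the median choline-fed oil difference was -0.43 for matrix, -0.79 for cell cycle and -0.40 for interferon genes. In deficient kidneys these medians were -0.48, -0.59 and -0.53. For tubular injury, immediate early and macrophage genes the choline-fed medians were 0.0, 0.14 and -0.33, against -0.80, -0.72 and -1.11 in deficient kidneys.

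**Figure D5:**
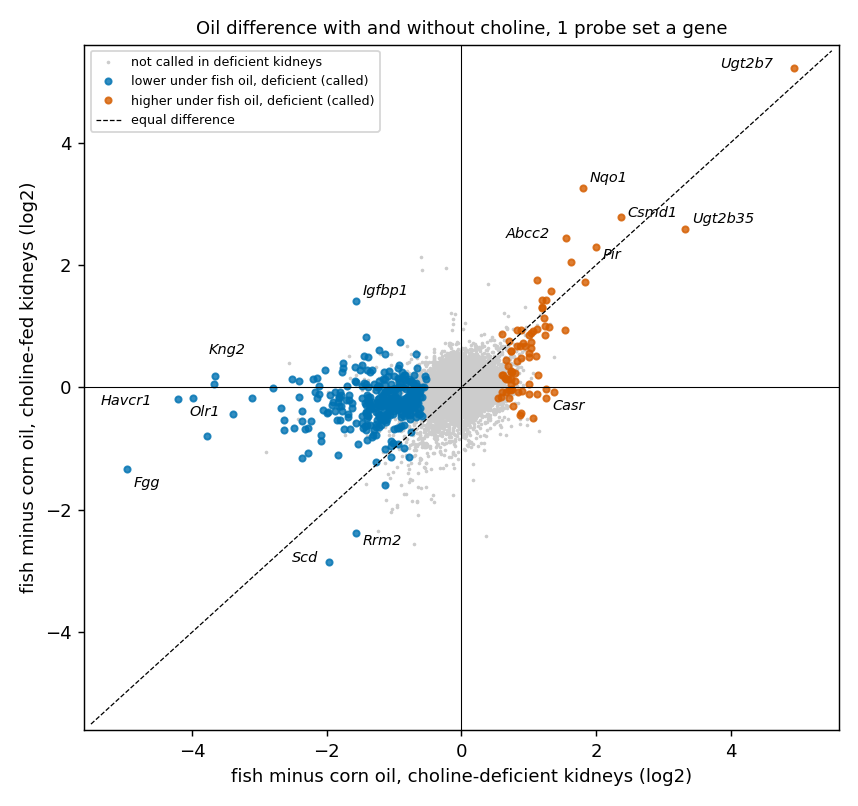
Fish minus corn oil log2 difference of 14506 genes in choline-deficient (x) and choline-fed (y) kidneys; blue and orange points fell or rose in the deficient comparison and the dashed line marks equal differences. Ugt2b7, Csmd1 and Pir lie near the dashed line, while Kng2, Olr1 and Havcr1 lie far left at choline-fed differences between -0.19 and 0.19.

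Whether the oil difference itself depended on choline was tested as the interaction, the deficient minus the choline-fed difference. It was called for 30 probe sets (0.103%), 28 negative (0.0958%) and 2 positive (0.00685%), and 25 of the 406 lower and 1 of the 101 higher probe sets were among them. Kng2 differed by -3.85, Olr1 by -3.82, Atf3 by -3.74, Fga by -2.95, Kng1 by -2.95 and Socs3 by -2.51 log2 units more in deficient than in choline-fed kidneys (limma adjusted p from 0.00826 to 0.0282). For Fgg (-3.62, adjusted p = 0.059), Fgb (-2.98, adjusted p = 0.0886) and Havcr1 (-4.02, adjusted p = 0.184) the interaction was not called. Angptl4, a PPAR-induced lipase inhibitor named after its values were seen, differed by -0.23 in deficient and 1.95 in choline-fed kidneys (interaction -2.18, adjusted p = 0.045). No interaction was called when any 1 of the 4 choline-fed arrays was left out, and 7 to 90 were when any 1 of the 4 deficient arrays was. For Ugt2b7, Csmd1, Pir and Gsta3 it was between -0.41 and 0.11, for Abcc2 -0.88 (adjusted p = 0.221) and for Nqo1 -1.46 (adjusted p = 0.351), none called.

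Deficient kidneys were also set against the choline-fed kidneys with the same oil, which shares arrays with the main comparison. The 406 lower probe sets had a median of 0.87 log2 units above control in deficient corn oil kidneys and 0.02 in deficient fish oil kidneys. The 101 higher probe sets had medians of -0.42 and 0.02. The deficient fish oil mean lay within the range of the 4 choline-fed arrays for 287 of the 406 lower and 72 of the 101 higher probe sets, and the deficient corn oil mean for 22 and 20. Over all 29214 probe sets the corresponding numbers were 21994 and 16933. The lower and higher probe sets were chosen by the difference between the deficient fish and corn oil groups. Their medians and counts here are partly set by that choice, and the fish oil shares were no higher than over all probe sets. Deficient against choline-fed kidneys gave 330 called probe sets under corn oil (1.13%), a count of 32 to 714 when 1 array was left out. Under fish oil 0 were called by limma (1036 at an unadjusted p under 0.05), and 2 without deficient fish oil pool 1. Fgg lay 3.86 above control under corn oil and 0.24 under fish oil, and Havcr1 5.85 and 1.83. Casr lay -1.40 from control under corn oil and 0.02 under fish oil, and Oxgr1 -1.41 and 0.03.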

How the data were processed

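Kidney RNA pools were hybridised to single-channel biotin arrays. The deposited values are log2 intensities made by the authors with RMA, per the submitters' processing notes. Which software and which probe set definition RMA used is not given in the sources used here. They were used as deposited, with no filter. Of 29214 probe sets, 15310 had 1 gene symbol in the platform annotation and 323 had several, giving 14506 genes; for a gene with several probe sets, the brightest on average was taken. Groups came from the sample labels.

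All 10 arrays, as 5 groups, were fitted with limma 3.58.1 in R 4.3.3 (lmFit and eBayes, 5 residual and 3.59 prior degrees of freedom), with a two-sided test and Benjamini-Hochberg adjustment over all probe sets of a contrast at 0.05. An exact permutation test of 2 against 2 cannot go below p = 0.333 and was not used. Counts, sequences and plots used Python 3.11.15 with pandas 2.3.3, numpy 2.4.6 and, for plots, matplotlib 3.10.9. The fit was also run on simulated data with known changes and independent normal noise of the same spread in all groups. Unequal spread between groups was not simulated, so that run does not give the rate of false calls in these data.

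The named genes are the 15 largest rises and falls with 1 symbol, up to 4 called members of each of 42 gene lists, and 31 fixed genes, of which 4 had no probe set with 1 symbol. The members, the lists and this rule were chosen with earlier results of these data known. Alternatives were 3 normalizations, 2 filters on dim probe sets, another variance prior, fewer arrays, a replicate block, only probe sets with 1 symbol, and each array left out in turn.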

Additional observations from a re-analysis of the deposited data

Results flagged for a closer look

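For 12 named genes the oil difference in deficient kidneys differed from that in choline-fed kidneys by the interaction test of limma at an adjusted p under 0.05. The deficient minus the choline-fed log2 difference was -3.85 for Kng2, -3.82 for Olr1, -3.74 for Atf3, -2.96 for Igfbp1, -2.95 for Kng1 and -2.95 for Fga. It was -2.51 for Socs3, -2.24 for Myc, -2.13 for Inhba, -1.97 for Osmr, -1.52 for Lcp1 and -1.48 for Klf6. Igfbp1 and Myc were below 0 in deficient kidneys (-1.56 and -1.42) and above 0 in choline-fed ones (1.41 and 0.82), the latter called for Igfbp1 alone of the pair. For the other 10 the choline-fed difference lay between -0.44 and 0.19. All 12 calls ended when any 1 of the 4 choline-fed arrays was left out.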

How the results depend on the processing

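Counts of called probe sets depended on the processing. The deficient oil comparison gave 507 calls as reported, 25 with the 4 arrays alone (3 higher, 22 lower, all 25 among the 507), 761 with probe sets of 1 symbol alone, and 87 to 691 with 1 array left out. Its higher count of 101 became 154 and 216 with filters at the 25th and 50th percentile, 187 with a trend and robust prior, 198 with 1-symbol probe sets and 8 to 230 with 1 array left out; its lower count was then 79 to 461. The choline-fed count of 54 became 115 and 118 with the filters, 124 with the prior, 130 with 1-symbol probe sets and 3 to 6 with 1 array left out. The interaction count of 30 became 61 and 87, 67, and 112 under the same settings, 14 without the necrotic arrays, 11 with the replicate block and 0 to 90 with 1 array left out. At 0, limma still had 1672 to 3179 probe sets at an unadjusted p under 0.05. Deficiency under corn oil gave 542 with the stricter filter, 540 with the prior, 577 with 1-symbol probe sets and 32 to 714 with 1 array left out, against 330; under fish oil it gave 0 to 2. The alternatives for the choline-fed and deficiency contrasts were chosen after seeing the data. The cause of these moves was not tested.

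Replicate numbers did not pair the pools: deviations of same-numbered deficient pools correlated at -0.037, and -0.173 to 0.136 over all pairs of groups. The replicate block gave 427 calls in the deficient comparison, 397 of them among the 507. Signs turned for 3 named genes that were not called: Hmox1 (-0.60) was 0.04 without fish oil pool 2; Umod (-0.02) was 0.04 with median centring and 0.01 to 0.05 in 2 fits without an array; Chdh (0.00) was 0.00 after quantile normalization again, -0.01 with cyclic loess and -0.08 to -0.03 in 2 such fits. Over fits without 1 array, Hmox1 ran from -1.25 to 0.04, Umod from -0.09 to 0.05 and Chdh from -0.08 to 0.09. With 2 pools a side the number of arrays limits the precision, and whether dim probe sets such as Il6 lay above background was not tested.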
